A study of Mus musculus with 6 samples.

Results

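The 45 genes described here encode the hormones, glycoproteins and proteases by which mouse trophoblast and decidua are usually recognised, followed in yolk sac RNA at embryonic day 9.5. They were chosen by symbol among the 19938 genes that the array's probe table names one to a probe set: every prolactin family gene with a numbered Prl symbol (19 genes), every numbered pregnancy-specific glycoprotein gene (12 Psg genes), 6 cathepsins of the placental cluster, the trophoblast genes Tpbpa, Tpbpb, Plac1 and Elf5, and Prap1, Hsd11b2, Igfbp1 and Wnt4, which decidua or uterus express. Each gene is given by its brightest probe set. Gcm1, Cts3 and Ctsm, also sought, had no probe set of their own symbol alone and are not among the 45. The arrays held yolk sacs of 3 wild-type littermates and of 3 embryos homozygous for a gene-trap allele of Tnrc6a, which encodes GW182 (GW182gt/gt), each dissected from an individual embryo. The labels add the word mixed to both genotypes without saying what it refers to. Where the trap lies relative to the probes is not stated. Values are the deposited log2 signals, so a difference of 1 is a doubling of signal. Signals of different probe sets are not compared with each other.

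At this stage the yolk sac lies inside a shell of parietal endoderm and trophoblast giant cells, and outside that shell lies the maternal decidua. Giant cells and the spongiotrophoblast secrete placental lactogens, proliferins and other prolactin-like hormones, encoded with their decidual relatives in a gene cluster on chromosome 13. Decidual cells make decidual prolactin-related protein, encoded by Prl8a2. Pregnancy-specific glycoproteins are secreted immunoglobulin-like proteins of trophoblast, and the placental cathepsins are cysteine proteases expanded in rodents. Trophoblast and decidua are not part of the visceral yolk sac, while parietal endoderm forms the parietal yolk sac.

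All 19 prolactin genes lie on chromosome 13 in the RefSeq annotation of GRCm38.p6. The 250 bases before the RefSeq start are printed here for the 5 trophoblast prolactins that rose above background on at least 1 array, and for Prl7a2, which did not. They are shown because the promoters of these 5 genes and of Prl7a2 share a stretch of letters close to the start. This stretch was not common to all members with similar array patterns. Psg29, with the same order of the highest arrays as Prl2c5 and Prl7a1, had no match to it. Prl8a2 had no promoter entry to search. Capitals mark 3 motifs, each searched on both strands: TATATANGAGG, which contains a TATA box, GATAA, the core that GATA factors bind, and TGANTCA, the letters of an AP-1 site. GATA and AP-1 factors are known regulators of the placental lactogen I and proliferin promoters.
Prl3d3, chr13:27156544-27156793, plus strand: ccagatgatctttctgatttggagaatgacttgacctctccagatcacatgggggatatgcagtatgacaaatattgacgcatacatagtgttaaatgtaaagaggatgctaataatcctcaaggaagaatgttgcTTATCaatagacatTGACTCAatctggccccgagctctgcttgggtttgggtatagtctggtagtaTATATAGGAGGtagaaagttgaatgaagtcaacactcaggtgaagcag
Prl2c5, chr13:13182466-13182715, plus strand: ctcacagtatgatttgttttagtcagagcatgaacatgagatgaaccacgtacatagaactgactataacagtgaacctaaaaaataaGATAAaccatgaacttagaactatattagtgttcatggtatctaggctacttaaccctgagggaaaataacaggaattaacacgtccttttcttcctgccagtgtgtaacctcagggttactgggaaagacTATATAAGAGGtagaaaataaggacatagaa
Prl7a1, chr13:27642494-27642743, minus strand: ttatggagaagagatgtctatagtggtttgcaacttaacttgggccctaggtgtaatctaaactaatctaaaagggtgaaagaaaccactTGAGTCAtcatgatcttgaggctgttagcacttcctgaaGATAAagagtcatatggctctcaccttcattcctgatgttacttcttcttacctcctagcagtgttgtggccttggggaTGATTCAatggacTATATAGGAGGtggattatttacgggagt
Prl4a1, chr13:28015962-28016211, plus strand: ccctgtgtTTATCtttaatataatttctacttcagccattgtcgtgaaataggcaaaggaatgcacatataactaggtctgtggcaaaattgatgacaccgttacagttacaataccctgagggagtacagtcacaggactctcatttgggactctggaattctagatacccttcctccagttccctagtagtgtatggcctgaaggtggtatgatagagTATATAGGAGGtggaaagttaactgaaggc
Prl2a1, chr13:27801405-27801654, plus strand: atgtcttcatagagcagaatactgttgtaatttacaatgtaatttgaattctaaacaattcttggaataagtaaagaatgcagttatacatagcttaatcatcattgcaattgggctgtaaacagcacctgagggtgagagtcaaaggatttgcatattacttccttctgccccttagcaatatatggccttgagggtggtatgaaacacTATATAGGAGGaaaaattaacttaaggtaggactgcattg
Prl7a2, chr13:27668037-27668286, minus strand: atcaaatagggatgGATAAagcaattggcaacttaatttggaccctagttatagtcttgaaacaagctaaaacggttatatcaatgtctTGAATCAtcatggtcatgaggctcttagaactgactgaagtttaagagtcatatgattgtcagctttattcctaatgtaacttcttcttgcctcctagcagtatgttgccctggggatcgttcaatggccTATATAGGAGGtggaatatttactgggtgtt

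The letters TATATANGAGG are those that the promoters of the 5 trophoblast prolactins above background share. They were read off and then counted, so the count is a description. They occurred in the 250 upstream bases of 21 of 32851 RefSeq promoters (0.0639%), belonging to 20 genes, of which 11 were prolactin family genes. Of the 16 prolactin genes among the 45 that had a promoter in the table, 8 held the motif, starting 29 to 48 bases before the RefSeq start. Among these 8, 5 were above background on at least 1 array (Prl3d3, Prl2c5, Prl7a1, Prl4a1 and Prl2a1) and 3 were not (Prl2b1, Prl7a2 and Prl7d1). Of the other 8, with no match in this window, 0 were above background on any array. As the letters came from the genes above background, this split was fixed in advance. It does not link the motif to expression. GATAA was found in 25 and TGANTCA in 10 of the 44 promoter entries of the 38 genes with a promoter, against 22.6% and 6.75% of all promoters. Paralogous promoters share letters by descent, and a match is no evidence of a site in use.

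The 6 arrays had medians between 5.19 and 5.22. Tnrc6a, the check of the labels, gave 8.40, 7.62 and 8.29 for wild types 1 to 3. Its level was far lower in mutant 3 (5.2) and mutant 2 (5.34). The library labelled mutant 1 had 7.81, above wild type 2, which goes against its label, and it is named that way throughout. Of 16 visceral endoderm markers of the yolk sac, 15 were above background on all 6 arrays, among them Afp and Ttr at 12.56 to 12.71, while albumin (Alb) was not. The table has no detection calls, so background was read from 1023 probe sets of olfactory receptor genes, a family not expected in this tissue. A member was taken as above background on an array where it exceeded the 95th percentile of those probe sets there, which lay between 4.24 and 4.41. The precision is limited by the number of arrays.

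Most of the 45 genes gave no signal above background in any yolk sac, and a small group of giant cell and decidual hormone genes gave a strong one in wild type 2 and, for most of them less, in mutant 2. Of the 45 genes, 30 were never above background, 5 were above it on all 6 arrays (Plac1, Hsd11b2, Igfbp1, Wnt4 and Prap1), and 10 on some arrays. The median of all probe sets on each array, 5.19 to 5.22, lay above the background limit there, and the share of all probe sets above it was not counted. The number of the 45 genes above background was 14 in wild type 2 and 13 in mutant 2. It was 10 in wild type 1, 5 in wild type 3, and 6 each for mutant 3 and the library labelled mutant 1. With the 99th percentile as the limit these counts were 11 and 10 for wild type 2 and mutant 2 and 4 for each of the other arrays, so the count for wild type 1 depended on the limit. The arrays that stood out thus included 1 of each genotype. RNA of a whole tissue cannot tell more cells of a type from more RNA per cell.

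**Figure D1:**
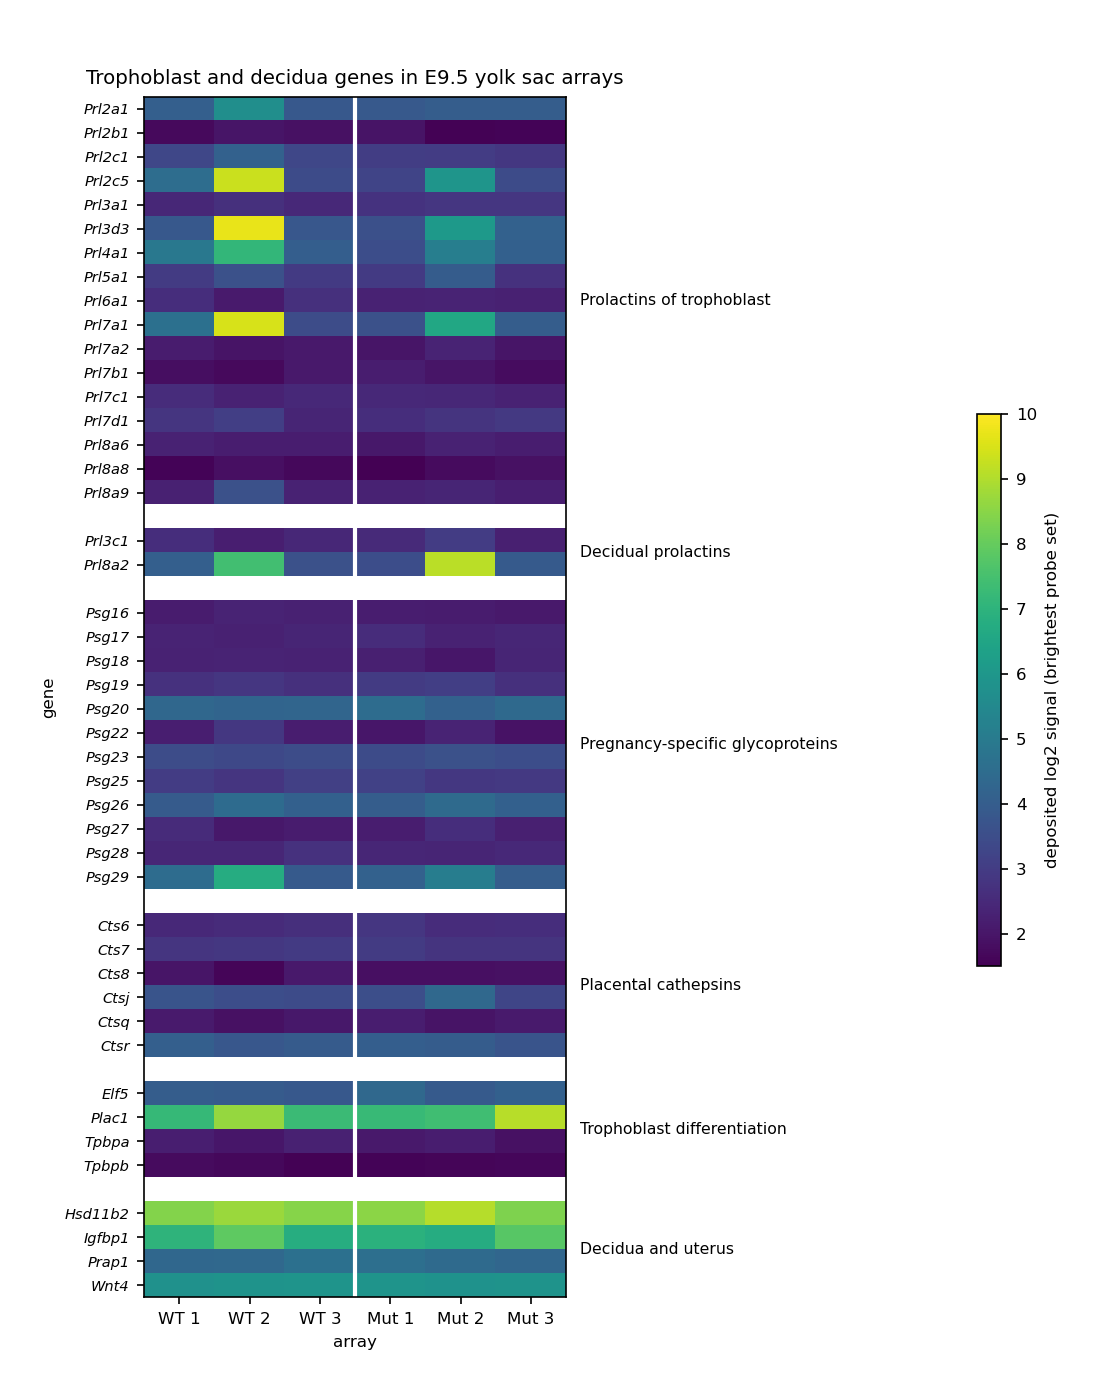
Deposited log2 signal of the 45 genes (rows, grouped by role) on each of the 6 arrays (columns), from dark (low) to bright (high). Prl3d3, Prl2c5 and Prl7a1 are bright in wild type 2 and intermediate in mutant 2, Prl8a2 is brightest in mutant 2, and most rows stay dark on all arrays.

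The trophoblast prolactins came first in size. Prl3d3, a placental lactogen I gene whose hormone acts on the prolactin receptor, read 3.84, 9.73 and 3.81 in wild types 1 to 3. Mutant 2 had 6.06, and mutant 3 and the library labelled mutant 1 had 4.14 and 3.58, below background. Wild type 2 was thus at least 41.4-fold above the next wild type, whose signal was at background, and 12.7-fold above mutant 2. The gene has close paralogues, Prl3d1 and Prl3d2, which are not analysed here, and whether the signal includes theirs is uncertain.

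Prl2c5, a member of the proliferin group of angiogenic hormones, read 4.53, 9.30 and 3.45 in the wild types, and 3.24, 5.94 and 3.45 in the mutant libraries in order. Wild type 2 was 27.3-fold above wild type 1, and mutant 2 was at least 2.90-fold above the other mutant libraries. A probe set that lists the proliferin genes Prl2c2, Prl2c3 and Prl2c4 together gave 4.67, 10.09 and 3.59 in the wild types and 3.35, 6.47 and 4.16 in the mutant libraries. The order of the 3 highest arrays was the same for both probe sets: wild type 2, mutant 2, wild type 1. These genes are near-identical copies, and the signal of one cannot be separated from the others.

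Prl7a1, which encodes prolactin-like protein E, read 4.64, 9.5 and 3.47 in the wild types and 3.62, 6.60 and 4.0 in the mutant libraries. Wild type 2 was 29.1-fold above wild type 1 and 7.43-fold above mutant 2. Prl4a1, which encodes prolactin-like protein A, had the narrower span of 4.91, 7.13 and 4.06 against 3.51, 5.14 and 4.12. Wild types 1 and 2 and mutant 2 were above background for both genes, and the other libraries were below it. Prl2a1 was above background in wild type 2 alone, at 5.7, and below it in wild type 1 (4.06), wild type 3 (3.84) and the mutant libraries (3.87, 4.0 and 4.01).

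The other 12 trophoblast prolactins stayed below the background limit on all 6 arrays. Among them Prl8a9 read 3.62 in wild type 2 and 2.20 to 2.38 elsewhere. Prl2c1 read 3.30, 4.14 and 3.30 in the wild types and 2.89 to 3.04 in the mutant libraries. Prl5a1 was highest in mutant 2, at 3.99, followed by wild type 2 at 3.62, with 2.71 to 2.98 on the rest. These 3 genes had ranges of 1 or more at signals too dim to call present on any array. The remaining 9 had ranges under 1, including Prl7d1, which encodes the antiangiogenic proliferin-related protein.

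Prl8a2, decidual prolactin-related protein, had the opposite order of the 2 bright arrays. It read 9.11 in mutant 2 and 7.44 in wild type 2. Wild types 1 and 3 had 4.09 and 3.60, mutant 3 had 3.91 and the library labelled mutant 1 had 3.51, all below background. Mutant 2 was at least 26.1-fold above the other mutant libraries and 3.19-fold above wild type 2, where Prl3d3, Prl2c5, Prl7a1 and Prl4a1 were 3.98-fold to 12.7-fold lower in mutant 2 than in wild type 2. Prl3c1, the other decidual prolactin, was below background throughout and also had its highest signal in mutant 2, at 3.0 against 2.60, 2.22 and 2.46 in the wild types and 2.51 and 2.26 in the other mutant libraries.

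**Figure D2:**
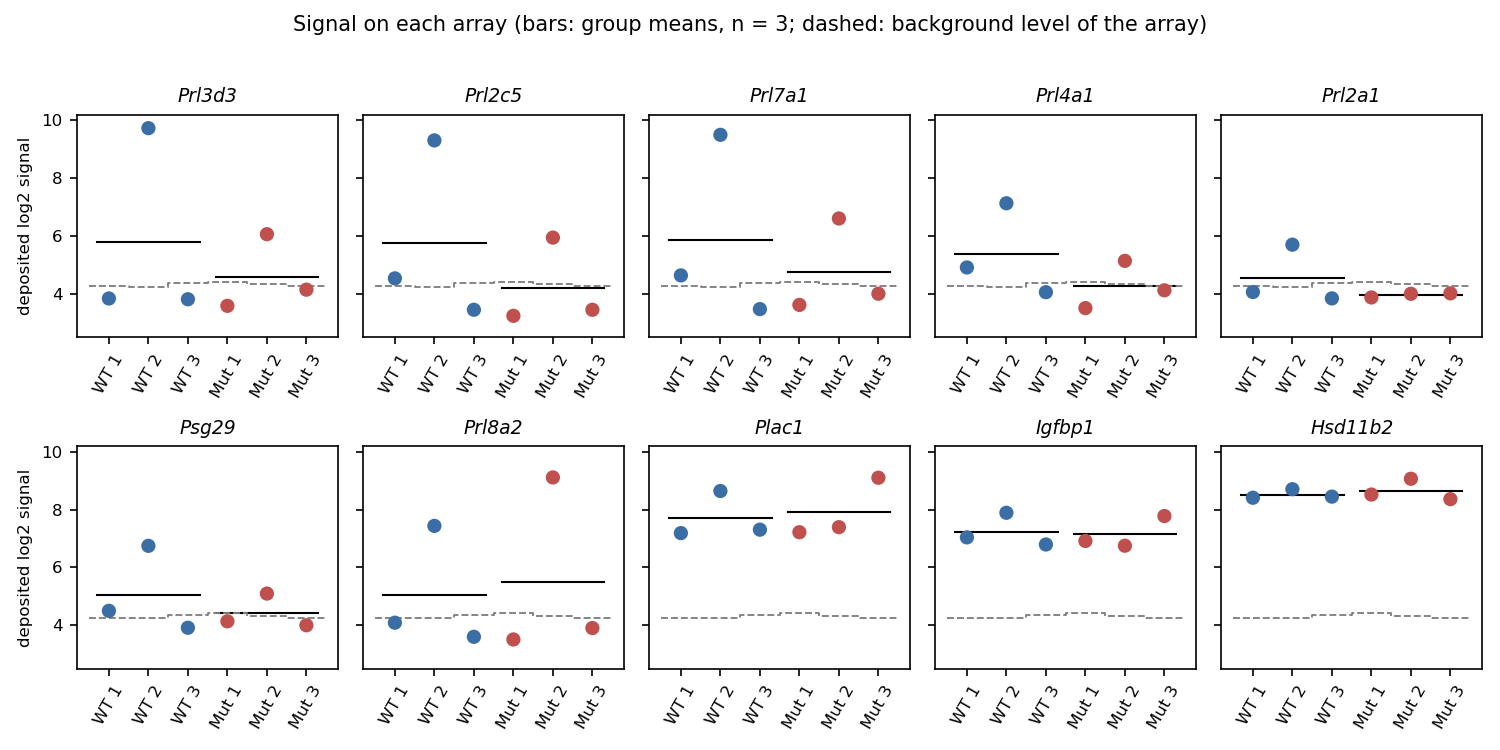
Log2 signal (y axis) on each array (x axis) for 10 genes, with wild types in blue and mutant libraries in red. Bars are group means (n = 3) and the dashed line is the background level of each array. The first 7 genes are high in wild type 2 (5.7 to 9.73) with most other arrays near background, whereas Plac1 and Igfbp1 are highest in wild type 2 and mutant 3.

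Of the 12 Psg genes, Psg29 alone had a range of 1 or more. It read 4.5, 6.75 and 3.91 in wild types 1 to 3 and 4.14, 5.10 and 4.0 in the mutant libraries, with the same order of the 3 highest arrays as Prl2c5 and Prl7a1. Psg20 crossed the background limit on 4 arrays, at 4.34, 4.25 and 4.27 in the wild types and 4.49, 4.15 and 4.39 in the mutant libraries. Psg26 crossed it on 2, wild type 2 and mutant 2, with 3.95, 4.46 and 4.11 against 3.99, 4.44 and 4.09. The other 9 Psg genes stayed below it, with ranges of up to 0.98. Several Psg genes are close copies, and 1 further probe set lists Psg20, Psg21, Psg23 and Psg25 together. It read 4.20 to 4.33.

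The placental cathepsins were at background. Ctsj reached 4.36 in mutant 2, just over the limit of 4.33 there. It read 3.72, 3.52 and 3.46 in the wild types, 3.29 in mutant 3 and 3.54 in the library labelled mutant 1. Ctsr was steady, at 4.07, 3.80 and 3.95 in the wild types and 4.04, 3.96 and 3.70 in the mutant libraries. Cts7 read 2.82, 2.88 and 2.93 against 2.96, 2.78 and 2.76. Cts6, Cts8 and Ctsq read 1.63 to 2.84. The 4 probe sets that list Cts3 and Ctsm together hold only 2 different series of values and read 2.48 to 2.99.

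Tpbpa, the standard marker of spongiotrophoblast and its precursors, was at background on all arrays, at 2.21, 2.03 and 2.28 in the wild types and 2.08, 2.19 and 1.88 in the mutant libraries, and so was its relative Tpbpb, at 1.54 to 1.74. Elf5, a transcription factor of trophoblast stem cells, read 4.01, 3.94 and 3.85 in the wild types and 4.38, 3.90 and 4.11 in the mutant libraries, below background throughout. The arrays with high Prl3d3 thus had no measurable Tpbpa: wild type 2 read 2.03 and mutant 2 read 2.19.

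Plac1, an X-linked gene named for its expression in placenta, was well above background on every array and had another order. Wild types 1 to 3 had 7.19, 8.64 and 7.31, and the mutant libraries 7.22, 7.39 and 9.10, so that mutant 3 was 3.27-fold above the next mutant library and wild type 2 was 2.53-fold above the next wild type. Igfbp1, which binds insulin-like growth factors, was highest on the same arrays, with 7.04, 7.89 and 6.79 in the wild types and 6.92, 6.75 and 7.78 in the mutant libraries. Xist, which marks an inactive X chromosome, read 9.87, 3.58 and 3.90 in the wild types and 9.63, 3.74 and 10.003 in the mutant libraries. It was thus high in mutant 3 and low in wild type 2, the arrays with the most Plac1, and low in wild type 2, mutant 2 and wild type 3, of which the first 2 were bright for the prolactins. The Y-linked genes Eif2s3y and Uty read 7.46 and 7.08 in wild type 2, 7.25 and 6.83 in wild type 3 and 7.10 and 7.17 in mutant 2. On the other arrays they read 2.01 to 2.42. By these genes wild types 2 and 3 and mutant 2 were male, so sex was not balanced between the genotypes. The part of Xist or sex in these signals was not tested. Pairing wild type 2 with mutant 3 as the 2 highest arrays was common in this dataset: it held for 37.9% of the tested probe sets with a range of 1 or more. Wild type 2 with mutant 2 held for 12.7% of them.

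Hsd11b2, which inactivates corticosterone, varied less than Plac1 and Igfbp1, with a range of 0.71 against a median range of 0.35 over all tested probe sets. It read 8.41, 8.71 and 8.45 in the wild types and 8.52, 9.07 and 8.36 in the mutant libraries, highest in mutant 2 as Prl8a2 was. Wnt4, a signal of decidualisation that many tissues express, read 5.81, 5.85 and 5.91 in the wild types and 5.90, 5.85 and 5.86 in the mutant libraries, and 4.81 to 5.36 at its other probe set. Prap1, a secreted protein of uterine and gut epithelium, lay barely above background, at 4.33, 4.36 and 4.63 against 4.61, 4.45 and 4.31, and exceeded the 99th percentile of the olfactory receptor probe sets on 0 arrays.

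Prl3d3, Prl2c5, Prl7a1 and Prl8a2 were among the genes that varied most in the series. Over 15432 tested probe sets with a single symbol, Prl3d3, Prl2c5 and Prl7a1 had the widest ranges across the 6 arrays after Xist, at 6.14, 6.07 and 6.03, and Prl8a2 ranked 6 with 5.60. Most members were flat: of the 45 genes, 13 had a range of 1 or more, and 3 of these were below background throughout. Wild type 2 was the highest array for 14 of the 45 genes, or 31.1%. It was the highest for 12.3% of the 16387 tested probe sets, which leave out most of the dim genes that the 45 include. Wild type 2 exceeded all other arrays by 1 or more for 7 of the 45, and mutant 2 did so for 1, Prl8a2. Among the 12 of the 45 genes that were tested, these counts were 5 and 1. Over all tested probe sets they were 50 (0.305%) and 3 (0.0183%). Testing required a mean over all arrays, which the bright arrays raised for Prl3d3, Prl2c5, Prl7a1, Prl4a1, Psg29 and Prl8a2. The counts among the 12 thus partly follow from the filter and are a description only.

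The comparison of genotypes asks whether these genes differed when Tnrc6a was disrupted. No difference was detected. Nor did the fit call Tnrc6a itself, at -1.99 with an unadjusted p of 0.0167 and an adjusted p of 0.999 in limma. A lack of calls is thus weak evidence that these genes were unchanged. For the 4 tested prolactins of trophoblast, arrays of 1 genotype differed from each other by more than the genotype means did. Of the 45 genes, 12 were bright enough on average to be tested and 33 were not. In limma's test, 0 of the 12 passed a Benjamini-Hochberg adjusted p of 0.05, as did 0 of all 16387 probe sets (0.0%), and 0 of the 12 had an unadjusted p under 0.05, against 3.53% of all (1.28% lower in the mutants). By the methods' test too, 0 of the 12 had an unadjusted p under 0.05. Of the 12 differences, 6 were higher and 6 lower in the mutants, with a median of -0.040 against 0.0063 over all tested probe sets. The library labelled mutant 1, with Tnrc6a at 7.81, counts as a mutant here. Without it the differences were -0.69 for Prl3d3, -1.07 for Prl2c5, -0.56 for Prl7a1 and 1.47 for Prl8a2. Those of Igfbp1, Wnt4, Prap1 and Psg20 changed sign. In that limma fit 0 of the 12 had an unadjusted p under 0.05, and the lowest adjusted p of all probe sets was 0.108.

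Prl8a2, Prl3d3, Prl7a1 and Prl2c5 had the widest intervals of the 12. The mean of Prl3d3 in wild-type libraries was 5.79 ± 3.41 (SD, n = 3), and that in mutant libraries 4.60 ± 1.30 (SD, n = 3), a log2 difference of -1.20 with a 95% interval of -4.80 to 2.41. For Prl2c5 the difference was -1.55 (-4.97 to 1.86), for Prl7a1 -1.13 (-4.67 to 2.41) and for Psg29 -0.64 (-2.24 to 0.95). Prl4a1 had the lowest unadjusted p of the 12 in limma's fit, which was 0.184 before adjustment and 0.999 after it, for a difference of -1.11 (-2.88 to 0.66). The exact two-sided permutation p-values of these 5 genes were 0.5 to 0.8, where 3 against 3 arrays cannot go below 0.1. Without wild type 2 the differences of Prl3d3, Prl2c5, Prl7a1 and Psg29 turned positive, at 0.77, 0.22, 0.69 and 0.20, and that of Prl4a1 was -0.23. The direction of the first 4 thus rested on 1 array.

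Prl8a2 had a mean of 5.04 ± 2.09 (SD, n = 3) over wild types, against 5.51 ± 3.13 (SD, n = 3) over mutant libraries, a difference of 0.47 (-3.25 to 4.18). It was -1.34 without mutant 2 and 1.66 without wild type 2. Plac1 differed by 0.19 (-1.12 to 1.5), and by -0.41 without mutant 3. The 5 narrowest intervals were those of Wnt4 at 0.012 (-0.16 to 0.19), Psg20 at 0.056 (-0.19 to 0.30), Prap1 at 0.017 (-0.26 to 0.30), Hsd11b2 at 0.13 (-0.30 to 0.56) and Igfbp1 at -0.093 (-0.90 to 0.71). The genotypes overlapped for all 12 tested genes, against 8.55% of all tested probe sets whose groups did not overlap. Among all 45 they did not overlap for 2, against 8.52% of all probe sets with a symbol. These were Prl2c1 (3.30 to 4.14 in wild type, 2.89 to 3.04 in the mutants) and Prl3a1 (2.45 to 2.66 against 2.73 to 2.85), both named for this after their values were seen and both below background.

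**Figure D3:**
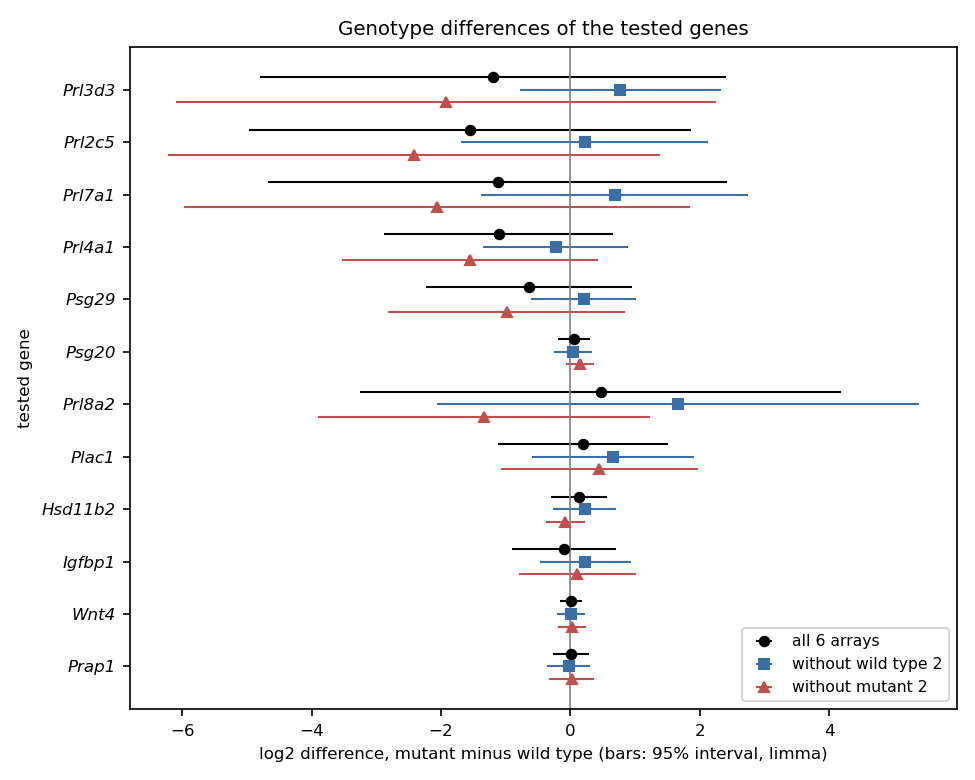
Log2 difference, mutant minus wild type (x axis), with its 95% interval from limma for the 12 tested genes (y axis), fitted on all 6 arrays (black circles), without wild type 2 (blue squares) and without mutant 2 (red triangles). All 36 intervals include 0, and Prl3d3, Prl2c5 and Prl7a1 lie on the negative side with wild type 2 and on the positive side without it.

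The other trophoblast genes had their highest signals on different arrays. Of 25 measured, 7 were highest in wild type 2, of them 2 by 1 or more, and 6 in mutant 2. Of the 25, 17 were above background on some array and 5 had a range of 1 or more, while 0 of the 16 tested passed (median difference 0.044). The placental serpin Serpinb9e read 5.58 in wild type 2, 4.25 in mutant 2 and 3.07 to 3.48 elsewhere, and Serpinb9b read 6.47, 4.99 and 4.25 to 4.78. Slc16a3, a lactate exporter, was highest in mutant 3, at 8.79 against 7.17 to 7.42. The list's mean signal relative to wild type was 0.18 in wild type 2 and 0.070 in mutant 2, and -0.11 to -0.041 in the other 4 libraries. Among genes of trophoblast stem cells, Eomes (3.83 to 4.14) and Esrrb (3.33 to 3.94) were below background, while Cdx2, which other embryonic tissues also express, read 6.44 to 6.59 on all arrays.

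Markers of parietal endoderm, the layer against the giant cells, stood out in wild type 2. All 12 were above background on all arrays, which does not by itself place this tissue in every sample. Of the 12, 11 were highest in wild type 2, 7 of them by 1 or more. The list mean was 1.05 there and -0.56 to -0.27 in the other 5 libraries. Fst, the activin antagonist follistatin, read 8.68 in wild type 2 and 4.49 to 4.87 elsewhere, and the laminin chain gene Lama1 10.69 against 7.69 to 8.42. Thbd, the thrombin receptor thrombomodulin, read 8.52 against 6.13 to 6.72. Mutant 2, the second array for the giant cell prolactins, had the next highest list mean after wild type 2, at -0.27. Its Fst signal was 4.62, within the range of the other arrays, and its Thbd signal of 6.72 came next after wild type 2. Of the 12 markers, 1 was highest in mutant 2, Krt18 at 10.96. The tested median was -0.33 and 0 of 12 passed.

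Some lymphocyte granzymes were high on another wild-type array. Of 11 uterine natural killer cell markers 8 were highest in wild type 1, which held a middle place for the prolactins. Gzmd read 6.01 in wild type 1 and 2.22 to 2.89 elsewhere, Gzmf 5.7 against 3.01 to 3.70 and Gzmg 6.05 against 3.62 to 4.17. These granzymes are close copies that probe sets may share. Gzma (2.5 to 3.0) and Gzmb (3.02 to 3.74), also highest in wild type 1, were below background on all arrays. The defining markers Ncr1 (2.66 to 2.99) and Klrb1c (1.76 to 2.20) were below background on all arrays. The list mean was 0.70 in wild type 1 and -0.46 to -0.22 in the other libraries, and 0 of the 1 tested member passed.

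Decidual stroma markers spread more evenly. Of 16 measured, 11 were above background on all arrays and 6 had a range of 1 or more, and 0 of 13 tested passed (median 0.043). Adm, the vasodilator adrenomedullin, was highest in mutant 3, at 7.14, and the chaperone gene Cryab in wild type 2, at 8.64. Bmp2, a decidualisation factor, read 6.43 in wild type 2, 6.15 in mutant 3 and 5.09 to 5.42 elsewhere. The list mean was 0.23 in wild type 2, 0.20 in mutant 3 and 0.10 in mutant 2. Of the 16 markers, 6 were highest in wild type 2, 3 in mutant 2 and 3 in mutant 3. Dcn read 8.63 in wild type 2, 8.56 in mutant 2 and 7.47 to 7.97 elsewhere. Lum read 9.84, 9.78 and 8.75 to 9.497. Cryab also came next in mutant 2, at 8.09, close to mutant 3 at 8.04. Ptgs2 was highest in mutant 2, at 7.54. The progesterone receptor gene Pgr, a defining gene of decidua, was below background on all arrays, at 3.47 to 3.72. These included mutant 2, with its Prl8a2 signal of 9.11.

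The list means of the yolk sac's own cell types did not follow the order of the prolactins, but some mesenchymal genes were highest on the same 2 arrays. Visceral endoderm genes had list means of -0.13 to 0.13. Primitive erythroid genes were lowest in mutant 2, at -0.72, against -0.11 to 0.045 elsewhere. Endothelial genes were highest in mutant 3, at 0.50, and mesenchymal genes in wild type 2, at 0.68, then mutant 3, at 0.37, and mutant 2, at 0.26. Embryo genes had means of -0.057 to 0.14. In these 5 lists 0 tested genes passed. Whether the share of neighbouring tissue in a dissected sample set the signals of the hormone genes was not tested.

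**Figure D4:**
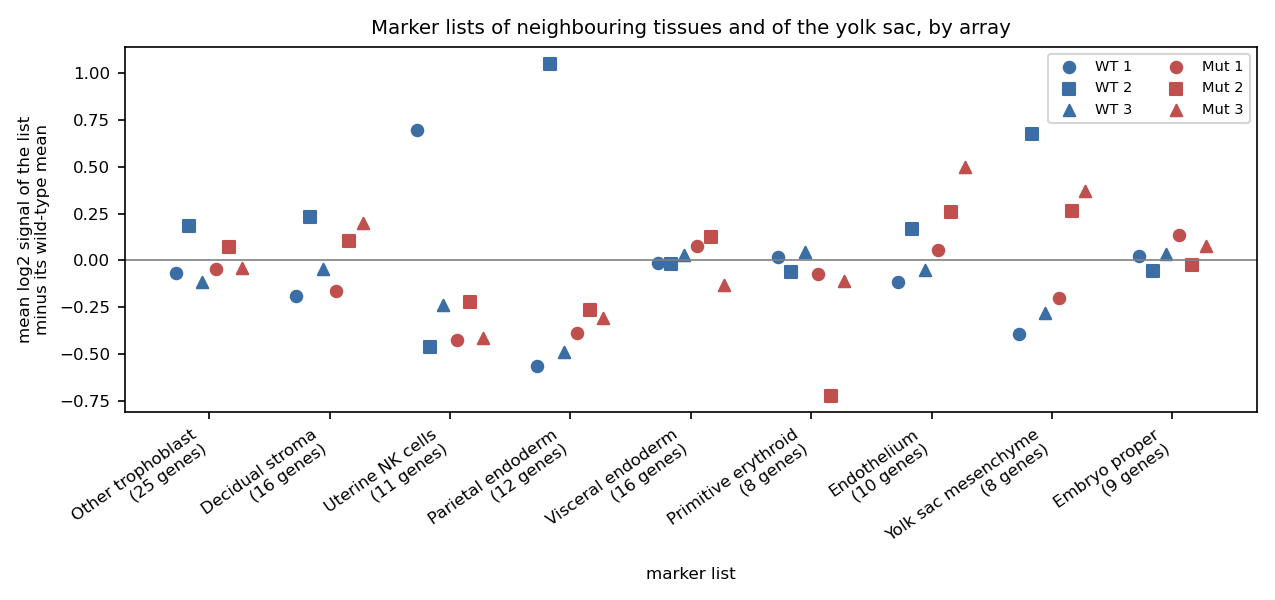
Mean log2 signal of each marker list minus its wild-type mean (y axis) for 9 lists (x axis) on each array (wild types blue, mutant libraries red, with circle, square and triangle for numbers 1, 2 and 3). Wild type 2 stands at 1.05 for parietal endoderm, wild type 1 at 0.70 for uterine natural killer cells and mutant 2 at -0.72 for primitive erythroid genes.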

How the data were processed

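Total RNA of 6 yolk sacs, 1 per embryo, was isolated with Trizol and its biotinylated cRNA measured on Mouse Gene 1.0 ST arrays of Affymetrix, per the labels' protocols. The authors deposited 1 processed value per probe set and array, used here on a log2 scale, which was read from the values (0.66 to 13.7, none below 0). The submitters' processing notes name MAS5 and no other tool. Probe summary, normalization and genome build: not given in the sources used here. Their effect on differences between arrays is unknown. Values were used as deposited.

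Of 35557 probe sets, the platform's probe table gave 21789 a single symbol, 1621 several and 12147 none. Those with any symbol whose mean reached the 30th percentile (4.29) were tested, 16387 in all. The genotype test was limma's (version 3.58.1, R 4.3.3) moderated test of mutant minus wild type with no block, adjusted by Benjamini-Hochberg over all tested probe sets at 0.05, and was tested on simulated data. Single values had exact two-sided permutation tests over 20 assignments. Nothing says that arrays sharing a number are paired. P-values measure the spread between embryos.

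Every one of the 45 genes is accounted for. Values on each array are given for genes above background on some array with a range of at least 1, for the 3 brightest of each role group and for the 3 with the lowest limma p, and up to 3 genes of widest range are named from each list of neighbouring tissues. Other genes are named as markers that define a tissue or the sex, or to show the order of the arrays within a list. Members and lists were chosen with earlier results of these data known. Alternatives changed the scaling (quantiles, or array medians), the filter on dim probe sets, the variance model (intensity trend and robust), the array weights, the test (the methods' 2-sample test), the block (replicate number) and the arrays, each left out in turn. Others averaged all probe sets of a gene, or added probe sets with several symbols. Leaving out wild type 2 and mutant 2 together was added after the data were seen. Promoters are RefSeq's, of GRCm38.p6, and matched 38 of 45 genes by symbol. A fold is called at least where the lower array was set to its background level.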

Additional observations from a re-analysis of the deposited data

How the results depend on the processing

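No setting gave a call at an adjusted p under 0.05, over all probe sets or among the members. The number of probe sets at an unadjusted p under 0.05, 579 over all arrays, became 1086 with array weights and ran from 395 to 1372 when 1 array was left out, the highest without mutant 3. Among the members the count at an unadjusted p under 0.05, 0 of 12, became 2 of 45 with no dim filter (Prl3a1 and Prl2c1), 2 of 12 with the replicate block (Prl2c5 and Prl4a1, adjusted p = 0.987 in limma), and ran from 0 to 1 when 1 array was left out (Prl4a1 without wild type 3). The arrays share only a number: deviations of same-numbered arrays correlated at 0.448, 0.146 and -0.107 and not every array correlated best with its own number, so the block is not read as a pairing. It called 727 probe sets at an unadjusted p under 0.05. The count of members above background in wild type 1 fell from 10 to 4 with the 99th percentile.

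Of 184 differences of single members under 16 alternatives, 26 changed sign. When 1 array was left out they ran from -2.71 to 0.22 for Prl2c5, -2.19 to 0.77 for Prl3d3, -2.33 to 0.69 for Prl7a1, -1.21 to 0.20 for Psg29, -1.34 to 1.66 for Prl8a2, -0.41 to 0.66 for Plac1, -0.41 to 0.23 for Igfbp1, -0.080 to 0.27 for Hsd11b2, -0.062 to 0.11 for Prap1, -0.018 to 0.15 for Psg20 and -0.013 to 0.039 for Wnt4, and stayed negative for Prl4a1 (-1.77 to -0.23). Without wild type 2 and mutant 2 together, Igfbp1 differed by 0.43, Prl3d3 by 0.039, Prl8a2 by -0.14 and Prap1 by -0.020. Plac1 differed by -0.045 with array weights, and Wnt4 by -0.031 as the mean of its probe sets. The causes of these changes were not tested beyond the arrays left out. The other settings run kept the direction of every tested member. The members' median ran from -0.53 to 0.22 when 1 array was left out. Most members lay at background, where a real difference could not be detected.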

Other observations

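The genes named here lie outside the 45 and were chosen after their values were seen, so no theme is drawn from them. Cyp11a1, which starts steroid synthesis from cholesterol, read 4.60, 8.0 and 3.77 in wild types 1 to 3. Mutant 2 had 5.36, mutant 3 had 4.19 and the library labelled mutant 1 had 3.61. Wild type 2, mutant 2 and wild type 1 were thus the 3 highest arrays, as for Prl2c5 and Prl7a1. Star, which carries cholesterol into mitochondria, read 8.43 in wild type 2, 5.73 in mutant 2, 5.50 in wild type 1 and 4.95 to 5.07 in the rest. Hsd3b6, a steroid dehydrogenase, had another order, with 9.60 in wild type 2 and 7.01 to 7.10 in wild types 1 and 3 and mutant 2, against 5.75 in mutant 3 and 5.94 in the library labelled mutant 1.

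Other genes were high on 1 of the bright arrays. Slc6a2, the noradrenaline transporter, read 8.31 in wild type 2 and 4.10 to 4.34 elsewhere, with 4.29 in mutant 2. Htra1, a secreted serine protease, read 7.13 in mutant 2, 5.01 in wild type 2 and 3.69 to 4.10 elsewhere, the order of Prl8a2. Erv3 had the same order, at 7.24 in mutant 2, 5.63 in wild type 2 and 3.58 to 3.91 elsewhere.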
